A study of Drosophila melanogaster with 19 samples.

Results

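The deposited table of the Drosophila melanogaster male germline lists 154 small noncoding RNAs among its 12810 genes, chosen here as the rows whose symbol begins with snoRNA, snRNA, snmRNA, mir- or scaRNA. They are 98 small nucleolar RNAs (snoRNAs), 30 microRNA precursors, 14 small nuclear RNAs (snRNAs), 11 small non-messenger RNAs (snmRNAs) and 1 Cajal body RNA (scaRNA). RPKM, the unit of the table, is reads per kilobase of gene length, scaled to the size of each library. Of the 154 rows, 140 reached 8 RPKM in at least 1 stage: 88 snoRNAs, 27 microRNA precursors, 13 snRNAs, all 11 snmRNAs and the scaRNA. The other 14 stayed below 8 RPKM in each of the 9 stage columns.

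The study sequenced single cysts, the clusters of germ cells that divide and differentiate together inside somatic cyst cells. The groups were spermatocyte cysts arrested by loss of always early (aly; 2 libraries), and, in the order of differentiation, the stem cell niche (2), gonialblasts (GB, 2), spermatogonial cysts of 4, 8 and 16 cells (S4, 2; S8, 2; S16, 1), early spermatocytes (EC, 3) and 2 sets of late spermatocytes (LC1, 3; LC2, 2 labelled and 3 found in the values). The labels name neither the aly allele nor what sets LC1 apart from LC2, and they call all samples germline stem cells. The cysts were taken from testes with a glass needle, a mild detergent opened the plasma membrane with the nucleus left whole, and reverse transcription started from poly-dT. Nothing in the labels says that the libraries of a group came from separate animals, so that p-values measure only the spread between these libraries.

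SnoRNAs guide chemical marks on ribosomal RNA. The C/D box class (symbols with Me) directs 2′-O-methylation and the H/ACA class (symbols with Psi) directs pseudouridylation, while orphan snoRNAs (Or) have no assigned target. Most fly snoRNAs lie in introns of ribosomal protein genes or of noncoding Uhg host genes and are freed from the spliced intron by trimming. SnRNAs are the RNA cores of the major and minor spliceosomes, 7SK holds the elongation kinase P-TEFb inactive, and microRNA precursors are hairpins cut by Drosha and Dicer-1. Mature snoRNAs and snRNAs generally carry no poly-A tail, so a poly-dT library does not target them. A read in one of these short rows can also come from a longer transcript across it. The deposited values do not separate both sources. Mature sequences of these RNAs were not used here.

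Reads per library were inferred from the stage means, taking each mean as a sum of whole reads divided by gene lengths and library sizes. The number and sizes of the libraries were not given and were inferred from values that recur over genes. Lengths were searched for around the annotated ones, or without a guide where no annotated length existed. Letters after a stage (LC2 a, b and c) name its libraries by size, the one with the most reads first. The 20 libraries held 857277 to 5330541 recovered reads, of which 121 to 1084 fell in the small RNA rows, or 0.00938 to 0.0366%. A single read in a row of 100 nucleotides was worth 2.04 to 10.7 RPKM. The 3 reads used as the floor were worth 6.12 to 32.2 RPKM, for counting error only, because amplified reads without molecular identifiers are not independent molecules. No recovered gene in any library exceeded 1 read per base, and the highest recovered gene of each library had 0.821 to 1.0 reads per base. The solving itself allowed little more than 1 read per base, so genes far above that could not have been recovered. At least 99.8% of the genes were recovered in each library. A limit of 1 read per base would lie lower in RPKM in a deeper library, where a read is worth less. Whether it held down the values of abundant genes or well-read rows was not tested. The always early transcript itself had 33.4 and 30.4 RPKM in aly cysts, against 63.0 to 138 RPKM in EC (log2 difference −1.59 ± 0.44, limma adjusted p = 0.0174). Spermatocyte markers (aly, can, sa, mia, nht) summed to 463 to 505 RPKM per library in aly cysts, to 2.62 to 29.7 RPKM in spermatogonia, to 308 to 759 RPKM in EC and to 409 to 542 RPKM in late spermatocytes.

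The rows were short and thinly read. Their median length was 132.5 nucleotides (range 35 to 454), and the stage with a row's highest value rested on a median of 14 reads (range 1 to 259). In 8 of the 140 rows fewer than 3 reads stood behind the highest value. Just above 8 RPKM were Psi28S-1192a with 8.76 RPKM from 7 reads in S4, Psi18S-1377d with 8.93 RPKM from 9 reads in S8 and Me28S-G2703a with 9.06 RPKM from 3 reads in EC. Just below it were Psi28S-2876 with 7.68 RPKM and mir-3645 with 7.84 RPKM, both from 1 read in S16, and lola-d with 7.98 RPKM from 5 reads in S8. By contrast, 35 rows had 20 or more reads in at least 1 library. Only mir-4942, in part inside an exon of the respiratory chain gene ND-MLRQ, was at 8 RPKM or more in all 9 stages. A further 18 rows reached 8 RPKM in 5 to 8 stages, and 29 rows did so in 1 stage.

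The early stages held many small RNA rows that were present in 1 library and absent from its partner. Aly cysts had 42 rows at 8 RPKM or more, all with reads in both libraries. Along the series the niche had 30 such rows, GB 50, S4 62, S8 64, S16 40, EC 34, LC1 48 and LC2 44. In that order, aly cysts first, these were 27.3, 19.5, 32.5, 40.3, 41.6, 26.0, 22.1, 31.2 and 28.6% of the 154 rows. Over all genes the shares at 8 RPKM or more were 59.5, 44.8, 45.2, 46.3, 46.9, 43.0, 55.3, 63.5 and 59.4%. The worth of a read in RPKM differed between libraries, so that the counts of rows cannot be compared directly between stages. Every library of the stage had reads for 12 of the 30 niche rows (40.0%), 18 of the 50 GB rows (36.0%), 28 of the 62 S4 rows (45.2%) and 40 of the 64 S8 rows (62.5%). The same share was 67.6% in EC, 97.9% in LC1 and 81.8% in LC2. Among all genes at 8 RPKM or more it covered all genes in aly cysts and lay between 89.4% in GB and 99.96% in LC1. At the same RPKM a short row rests on fewer reads than a longer gene and can more easily lack reads in a library. The shares of rows and of all genes therefore cannot be compared directly.

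**Figure D1:**
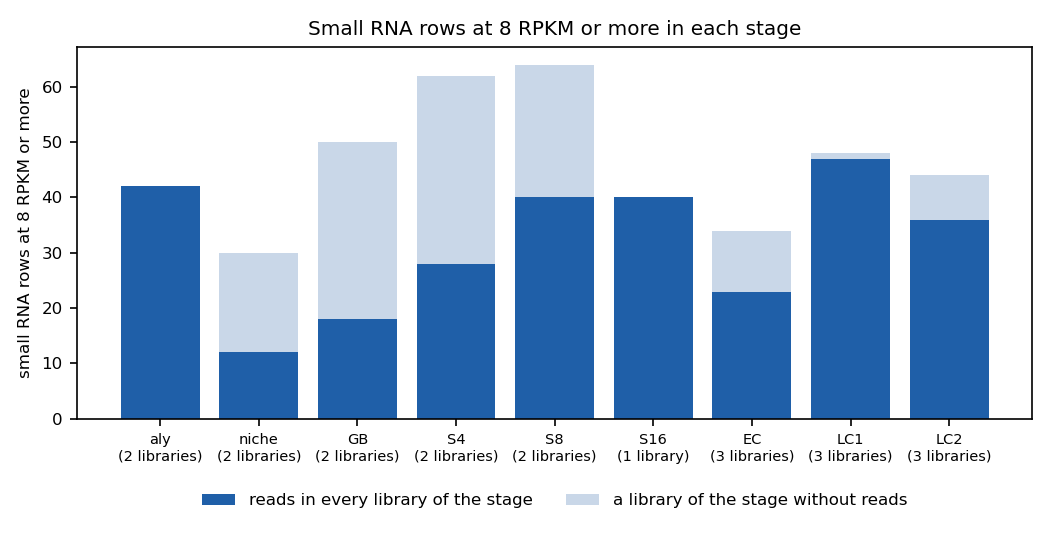
Number of small RNA rows at 8 RPKM or more (vertical axis) in aly cysts and in the 8 stages of the series (horizontal axis), split into rows with reads in every library of the stage (dark) and rows missing from a library (light). The light part is largest in GB and S4, at 32 and 34 rows, is absent in aly cysts, and holds 1 row in LC1. S16 has 1 library, so no row can be missing there.

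The rows of some host genes were read together in 1 library of a stage and missing together from the other. The 4 snoRNA rows in introns of RpS16, a small-subunit ribosomal protein gene, had 97 reads in 1 GB library and 0 in the other, and 0 and 16 reads in the S4 libraries. Of the 97, Psi28S-1175b had 33, Psi28S-1175c 26 and Or-aca1 20. The 8 rows of kra, a translation regulator, had 75 and 18 reads in aly cysts, while the S4 libraries had 65 and 0, with 20 in Psi28S-3091b, and the S8 libraries 20 and 35. The 3 rows of RpL17 had 34 and 0 reads in S4, while the S8 libraries had 0 and 27. Among the 6 rows of RpS7 the S8 libraries had 57 and 4 reads. In each of these cases the host transcript itself was abundant: RpS16 stood at 413 RPKM in GB and 448 RPKM in S4, and RpL17 at 346 RPKM in S4 and 235 RPKM in S8.

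**Figure D2:**
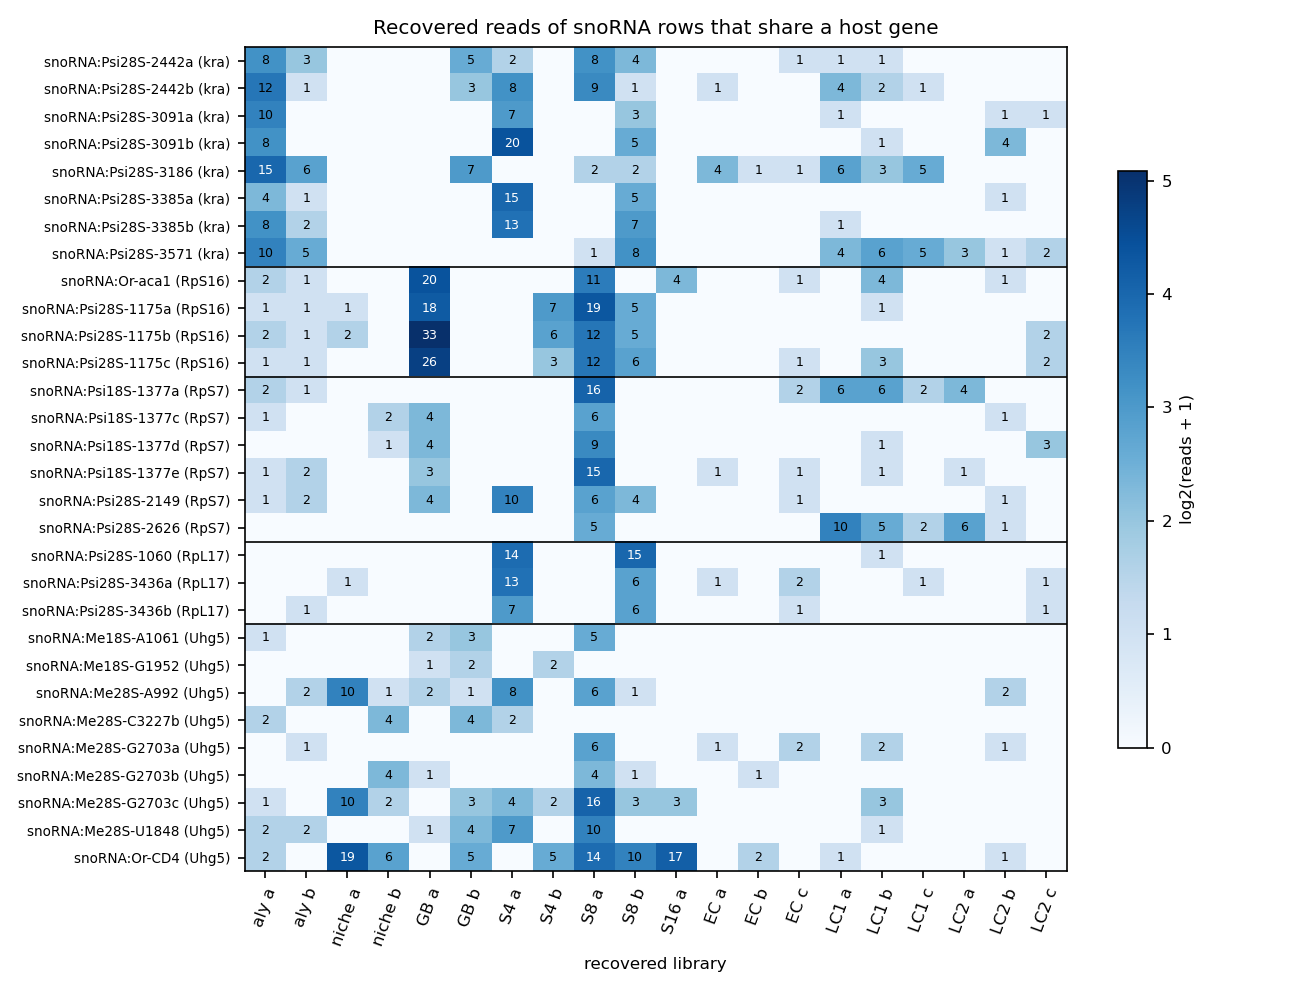
Recovered reads (numbers and shade, log2 scale) of the snoRNA rows of kra, RpS16, RpS7, RpL17 and Uhg5 (vertical axis, grouped by host) in each of the 20 libraries (horizontal axis, aly cysts at the left). Blocks of filled cells in 1 library of a stage stand beside empty cells in the other, as for RpS16 in GB (97 and 0 reads in all).

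4 comparisons were fitted with limma over 12431 genes on log2(RPKM + 1), and the words higher, lower, rose and fell below stand for an adjusted p under 0.05 (Benjamini-Hochberg over all genes) with at least 8 RPKM on the higher side. In EC against spermatogonia (S4, S8 and S16), 14 rows were higher, where 22% of all genes were, and 16 were lower, where 7.06% of all genes were. In late spermatocytes against EC, 31 rows were higher (all genes 23.1%) and 9 lower (20.1%). In aly cysts against EC, 13 rows were higher (all genes 8.42%) and 1 was lower (7.13%). In aly cysts against late spermatocytes, 6 rows were higher (13.4%) and 21 lower (17.6%). The 3 comparisons with EC share its 3 libraries, and both comparisons with aly share its 2. The late comparisons count 3 LC2 libraries, 1 more than the labels map, so that their p-values rest on that larger number. Without 1 LC2 library, 31 to 33 rows were higher and 7 to 10 lower in late spermatocytes than in EC. Single libraries moved other counts. Of the 13 rows higher in aly cysts than in EC, 4 passed with each library left out in turn, and the count was 4 without aly a, 6 without aly b and 8 without EC c. Aly cysts had 13 rows lower than late spermatocytes without aly a, 12 without aly b, and 3 higher without LC1 a. EC had 8 rows higher and 9 lower than spermatogonia without EC a, and 9 higher and 8 lower without EC b. Late spermatocytes had 5 rows lower than EC without EC c.

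Because a row read in 1 library can pass a pooled test, the counts were also taken over rows with reads in every library of the higher side, a restriction chosen after seeing the data. In that form 9 rows were higher and 6 lower in EC than in spermatogonia (all genes 21.7 and 6.07%), and 22 were higher and 9 lower in late spermatocytes than in EC (23 and 20.1%). The counts were 13 and 1 in aly cysts against EC (8.42 and 7.13%), and 6 and 15 in aly cysts against late spermatocytes (13.4 and 17.5%). The median log2 difference of the rows was −0.61 in EC against spermatogonia, 0.28 in late spermatocytes against EC, 0.54 in aly cysts against EC and 0.19 in aly cysts against late spermatocytes. Over all genes these medians were 0.48, 0.12, 0.16 and 0.06. With rows whose one side had no read set to their bound, the row medians were −0.30, 0.10, 0.25 and 0.35. The level of a gene in EC against spermatogonia depended on the scaling: the median of all genes moved to 0.20 with total reads and to −0.13 with quantile scaling, and the split of rows moved to 7 higher and 18 lower, and to 5 higher and 32 lower. In aly cysts against EC quantile scaling gave 8 rows higher and 5 lower, with a median of all genes of −0.10. With quantile scaling the median of all genes was −0.31 in late spermatocytes against EC and 0.35 in aly cysts against late spermatocytes. Markers of other cells moved with some of these comparisons. Late libraries had more of the 4 hub markers os, Fas3, CadN and esg (19.997 to 77.9 RPKM summed) than EC (1.32 to 5.82 RPKM), and 2 of the 4 rose. EC had less of the 4 muscle sheath markers Mhc, Act57B, Tm2 and Mlc2 (2.03 to 3.23 RPKM) than spermatogonia (15.3 to 193 RPKM), and 3 of the 4 fell. Aly cysts had a higher sum of the 4 fat body and haemocyte markers Yp1, Yp2, Yp3 and Hml (44.0 to 47.4 RPKM) than EC (2.80 to 8.92 RPKM, with Yp2 at 0), and 2 of the 4 rose. Yp3 had the opposite order without passing, at 1.21 RPKM in aly cysts and 4.29 RPKM in EC. In EC the same sum was below that of spermatogonia (33.2 to 145.5 RPKM), and 1 of the 4 fell. The muscle sheath sum was 8.79 to 38.3 RPKM in late libraries, above EC, and 1 of its 4 genes rose. Against late libraries, aly cysts had more of the fat body and haemocyte sum (late 8.27 to 24.4 RPKM), with 2 genes higher and 1 lower, and less of the hub sum (9.54 and 13.8 RPKM), with 1 gene lower. Their part in the results was not tested. In a bulk cyst, fewer cells of a type and less RNA per cell cannot be told apart.

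Of the 98 snoRNAs, 13 were higher and 2 lower in late spermatocytes than in EC (all genes 23.1 and 20.1%). By guide class these were 7 of 29 methylation guides, 3 of 44 pseudouridine guides, 2 of 11 orphans and 1 of the 14 others on the higher side, and 1 methylation and 1 pseudouridine guide on the lower side.

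Or-aca4, an orphan H/ACA snoRNA of 162 nucleotides at chr2R:17616756-17616917 (BDGP6.54), had 132, 131 and 127 RPKM in LC1 and 141, 282 and 237 RPKM in LC2, against 0, 4.77 and 0 RPKM in EC. The EC value was 1 read, while the 6 late libraries held 37 to 103 reads each. The log2 difference was 6.47 ± 0.53 (limma adjusted p = 9.3e-08). No read was found in the 9 libraries from the niche to S16. Aly cysts had 7.55 and 1.81 RPKM, so that they were lower than late spermatocytes by a log2 difference of −5.02 ± 0.61 (limma adjusted p = 7.64e-06), and the aly and late libraries did not overlap. The row lies antisense to an exon of CG44403, and as the strand of the counting is not given in the sources used here, reads of either gene cannot be told apart.

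Me18S-C1096, a methylation guide for the small ribosomal RNA in an intron of RpL3 (chr3R:11222405-11222489), was absent from all libraries before the late stages. Late spermatocytes had 49.0, 28.8 and 39.3 RPKM in LC1 and 120, 177 and 210 RPKM in LC2, against 0 in all 3 EC libraries. This was at least 10.3-fold higher than the floor of 3 reads over EC, and the fitted log2 difference, which depends on the pseudocount where a side has no read, was 6.13 ± 0.49 (limma adjusted p = 7.81e-08). Aly cysts had 7.19 and 0 RPKM and were lower than late spermatocytes (−4.61 ± 0.56, limma adjusted p = 8.66e-06). RpL3 itself, a large-subunit ribosomal protein gene, was lower in late spermatocytes (LC1 127 and LC2 139 RPKM) than in EC (396 RPKM), with a log2 difference of −1.57 ± 0.23 (limma adjusted p = 3.9e-05). Whether the limit of 1 read per base had a part in the fall of RpL3 was not tested. In an exon of the same gene, the methylation guide Me18S-A425 also rose, with a mean of 39.0 RPKM in late spermatocytes against 6.13 RPKM in EC (3.84 ± 0.90, limma adjusted p = 0.00214). In contrast, Psi28S-291, a pseudouridine guide in another RpL3 intron, had 86.1 and 0 RPKM in the niche, 42.5 and 76.5 in GB, 63.7 and 0 in S4, 0 in S8 and S16, 8.41, 3.51 and 16.9 in EC, and at most 5.57 RPKM in a late library. It passed in none of the 4 comparisons.

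Psi18S-1275, a pseudouridine guide in an intron of RpS29 (chr3R:9778398-9778537), rose in both steps. EC had 22.03, 5.51 and 13.3 RPKM, against 0 in the 5 spermatogonial libraries, at least 7.06-fold higher than the floor (fitted log2 difference 3.69 ± 0.43, limma adjusted p = 8.29e-06). Late spermatocytes had 102, 81.0 and 83.4 RPKM in LC1 and 180, 317 and 103 RPKM in LC2, each above the 3 EC libraries (3.20 ± 0.42, limma adjusted p = 1.32e-05). Aly cysts, at 20.4 and 16.7 RPKM, lay in the range of EC and below all late libraries (against late −2.61 ± 0.49, limma adjusted p = 5.14e-04). Its host RpS29 was higher in EC (487 RPKM) than in LC1 (230 RPKM) or LC2 (380 RPKM), and fell by 0.79 on the log2 scale in late spermatocytes (limma adjusted p = 0.0291). The part of the limit of 1 read per base in the RpS29 values was not tested.

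Me28S-G2743 and Me18S-G642, methylation guides with no position in the annotation used, were also higher in late spermatocytes. Me28S-G2743 had 128, 101 and 141 RPKM in LC1 and 130, 191 and 173 RPKM in LC2, against 15.6, 0 and 0 RPKM in EC (5.75 ± 0.68, limma adjusted p = 4.02e-06). Aly cysts had 25.8 and 29.7 RPKM for it. Me18S-G642 had 91.6, 47.1 and 42.8 RPKM in LC1 and 30.6, 324 and 175 RPKM in LC2, against 7.91, 0 and 0 RPKM in EC (5.23 ± 0.73, limma adjusted p = 2.25e-05). In aly cysts Me18S-G642 stood at 41.8 and 52.6 RPKM, within the late range and above EC (4.53 ± 0.93, limma adjusted p = 0.00282). Neither had a read before EC.

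The snoRNA row FBgn0065076, whose symbol carries a running number and no target, has 55 nucleotides and no overlapping gene (chr2R:19727098-19727152). Its highest values were in LC2. It had 10.8, 0 and 10.1 RPKM in LC1, from 3 reads, and 31.0, 226 and 279 RPKM in LC2, from 51 reads, against 0 in EC. No read fell in the row in aly cysts or in any library from the niche to EC. The mean of late spermatocytes was at least 5.54-fold higher than the EC floor (fitted 4.20 ± 0.73, limma adjusted p = 1.79e-04), and aly cysts were at least 11.5-fold lower than late spermatocytes (limma adjusted p = 9.16e-04). Libraries LC2 b and LC2 c held 28 and 18 of its 54 reads.

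**Figure D3:**
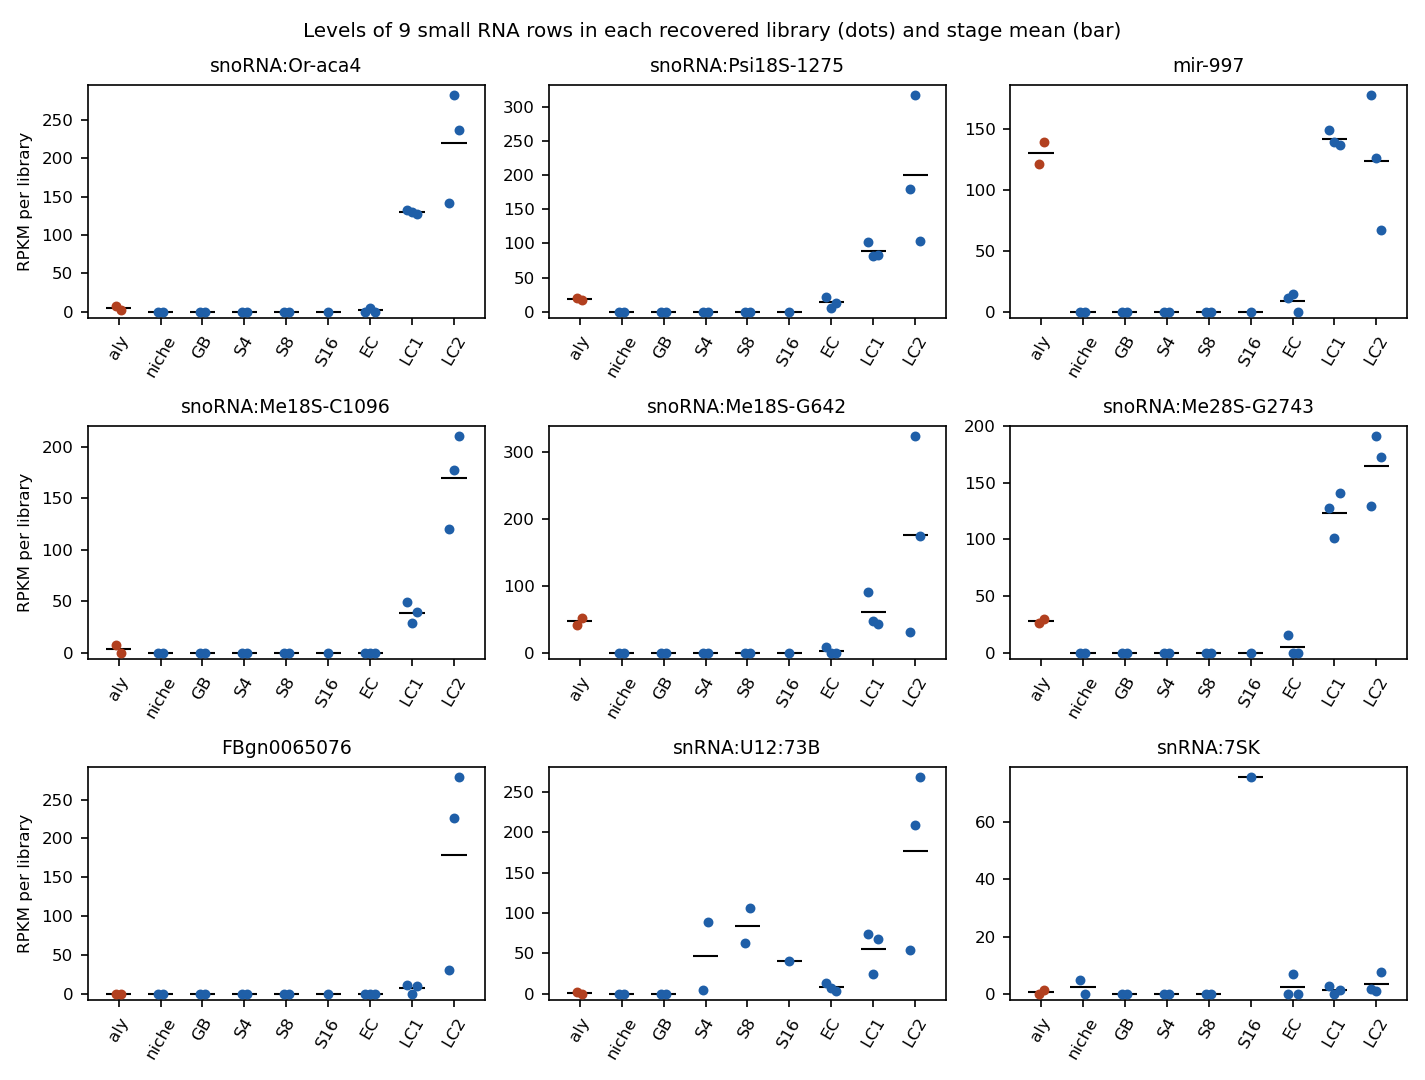
RPKM of 9 small RNA rows in each library (dots; aly cysts red at the left, the other stages blue) with the stage mean (bar), each panel on its own linear scale. Or-aca4, Psi18S-1275, mir-997, Me18S-C1096, Me18S-G642 and Me28S-G2743 are high in LC1 and LC2 and at 0 or near it from the niche to S16, FBgn0065076 is high in LC2 b and c, U12:73B is high in S8 and again in LC2, and 7SK is high in the S16 library.

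Further snoRNAs rose in late spermatocytes. Me28S-G3253, a methylation guide in an intron of RpS9, had a mean of 31.2 RPKM in late spermatocytes against 0 in EC, at least 3.65-fold higher than the floor (limma adjusted p = 2.9e-04). Psi28S-3571 in kra had a mean of 11.01 RPKM in late spermatocytes against 0 in EC (at least 2.11-fold, limma adjusted p = 7.51e-05) and had reads in all 6 late libraries, but the call was lost with quantile scaling. Me28S-G3081a in the noncoding host Uhg1, Me18S-C1831 in RpL27A and Psi28S-2626 in RpS7 also passed, but each lacked reads in 1 of the late libraries, and the call of Psi28S-2626 was lost without LC1 a. With quantile scaling Me18S-C1831 and Psi28S-2626 did not pass, nor did Psi28S-2626 with scaling to total reads. On the lower side, Me18S-A1576, a methylation guide in an intron of the noncoding host Uhg2, had 0 reads in the 6 late libraries, against 5.46, 6.83 and 16.4 RPKM in EC. It was at least 5.33-fold lower (limma adjusted p = 0.00823, and 0.0518 without EC c), and the call was also lost with a pseudocount of 8, with scaling to total reads and with quantile scaling. Psi18S-1347c in pAbp, the gene of the poly-A binding protein, averaged 0.84 RPKM in late spermatocytes against 9.53 RPKM in EC (limma adjusted p = 0.00298). Without EC c its EC mean was under 8 RPKM and the call was lost, although the adjusted p stayed at or under 0.0309. Scaling to total reads and quantile scaling also ended the call of Psi18S-1347c.

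Of the 31 rows that rose in late spermatocytes, 16 (51.6%) had no read in the 9 libraries from the niche to S16. The share was 48.2% (1384 of 2874) over all genes that rose there. A short row can lack reads at a level at which a longer gene has some. The shares therefore do not show whether a late start was equally frequent in both sets. In aly cysts 7 of the 31 rows and 66 of the 2874 genes had no read, with the same limit.

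Other snoRNAs were read mainly before the spermatocyte stages. Of the 98 snoRNAs, 10 were lower and 4 higher in EC than in spermatogonia (all genes 7.06 and 22%). Me28S-G2703c, a methylation guide in an intron of the noncoding host Uhg5, had the largest fitted difference of these 10, a value that depends on the pseudocount. EC had 0 reads, against 16.5 and 17.7 RPKM in S4, 50.8 and 15.3 in S8 and 37.9 in S16. It was at least 3.13-fold lower, a bound below those of Psi28S-2996 (3.79-fold) and Psi18S-1820 (3.62-fold), which also had no read in EC (Me28S-G2703c fitted −4.67 ± 0.93, limma adjusted p = 9.75e-04). Psi28S-2444 in RpL11 had 0, 0 and 7.14 RPKM in EC, against 0 and 11.6 RPKM in S4, 43.6 and 76.8 in S8 and 132 in S16 (−3.49 ± 0.85, limma adjusted p = 0.00413). Psi28S-2444 thus had no read in S4 a. Or-CD9b in an exon of Nop60B, which encodes the pseudouridine synthase of the H/ACA complex, had 0 reads in EC against 2.97 to 23.6 RPKM in the 5 spermatogonial libraries (−3.28 ± 0.94, limma adjusted p = 0.0119). The call was lost with a pseudocount of 8, and also without S16, where its mean in spermatogonia was under 8 RPKM.

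The calls of the other falling snoRNAs were lost when single libraries were left out. Or-CD2 in Uhg4 averaged 2.94 RPKM in EC against 21.2 RPKM in spermatogonia (limma adjusted p = 0.0235, up to 0.117 without S4 b, S8 a, EC b or EC c). Or-CD12 in RpL28 averaged 7.93 RPKM in EC against 60.7 RPKM in spermatogonia (limma adjusted p = 0.0466, up to 0.189 without S4 a, S8 a, S8 b, S16, EC a or EC b). Psi18S-1820, Me28S-G1083b, Me28S-A982b, Psi28S-2996 and Me28S-G3253 lacked reads in at least 1 spermatogonial library, and each lost its call without at least 3 of the 8 libraries compared. With a pseudocount of 8 the calls of Or-CD12, Psi28S-2996 and Me28S-G3253 were lost, as was that of Psi18S-1820 with scaling to total reads.

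Several of the most abundant early snoRNAs did not pass in EC against spermatogonia, and their libraries differed widely. Or-CD4 in Uhg5, the row with the highest stage value of all, had 234 RPKM in S16 from 17 reads, 171 and 68.0 RPKM in the niche, and 0 and 33.7 RPKM in GB. Its EC libraries had 0, 19.8 and 0 RPKM, with a log2 difference from spermatogonia of −3.53 ± 1.42 (limma adjusted p = 0.062). Psi18S-531 in RpL22 had 0 and 318 RPKM in GB, where the second value was 92 reads, 55.3 and 54.5 RPKM in S4, 67.5 and 103 in S8, 99.0 in S16, and 8.12, 20.3 and 48.8 RPKM in EC. Late libraries had at most 12.1 RPKM of it. Me28S-C788a in the splicing factor gene Sf3b3 had 48.7 and 240 RPKM in S4 and 0 and 103 RPKM in S8. Psi28S-612, with no annotated position, had 19.7 and 18.2 RPKM in aly cysts, 101.6 and 0 RPKM in the niche, and at most 24.2 RPKM in any other library. Me28S-G2596, also without one, was read in all stages but S16, and had 44.1 and 47.5 RPKM in aly cysts and 33.3, 41.7 and 50.1 RPKM in EC.

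4 snoRNAs rose in EC, among them Psi18S-1275. tra2-a, in an intron of the splicing regulator tra2, had 8.87, 22.2 and 13.3 RPKM in EC, against 0 in the 5 spermatogonial libraries (at least 7.63-fold, fitted 3.89 ± 0.35, limma adjusted p = 7.31e-07). The niche and GB had no read of it either. It stayed present in all 6 late libraries at 12.01 to 41.5 RPKM. Psi18S-1347c averaged 9.53 RPKM in EC against 0.37 RPKM in spermatogonia (limma adjusted p = 0.00333; without EC c its mean was under 8 RPKM), a call lost with total-read and with quantile scaling. Psi28S-3186 in kra averaged 9.71 RPKM in EC against 1.97 RPKM in spermatogonia (limma adjusted p = 0.0276, up to 0.138 without S8 a, S16 or EC a), and did not pass with either scaling or with a pseudocount of 8.

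Aly cysts shared some of the late snoRNAs and lacked others. Against EC, 8 snoRNAs were higher (all genes 8.42%), and against late spermatocytes 5 were higher and 10 lower (13.4 and 17.6%). Psi28S-2622, antisense to an intron of stet, had 23.3 and 33.5 RPKM in aly cysts, against 0 in EC and 0, 6.34 and 0 RPKM in LC2, with no read in LC1. The difference was at least 5.29-fold against EC (limma adjusted p = 5.11e-05) and 4.47 ± 0.55 on the log2 scale against late spermatocytes (limma adjusted p = 8.49e-06). The protease gene stet itself was higher in aly cysts (33.6 RPKM) than in EC (1.43 RPKM), LC1 (6.40 RPKM) and LC2 (3.56 RPKM). Psi18S-1347c had 11.2 and 14.1 RPKM in aly cysts, against at most 4.20 RPKM in a late library (3.28 ± 0.75, limma adjusted p = 0.00255, lost with quantile scaling). Psi28S-3571 had 14.2 and 10.2 RPKM in aly cysts against 0 in EC (at least 2.33-fold, limma adjusted p = 0.00143, lost with quantile scaling). Dek-a, in an intron of the chromatin gene Dek, had 7.37 and 15.9 RPKM in aly cysts, against at most 5.34 RPKM in a late library (2.78 ± 0.76, limma adjusted p = 0.00878, and 0.132 without aly b). The Dek-a call was lost with quantile scaling. dmt-a, in an intron of the cohesion gene dmt, had 27.9 and 7.28 RPKM in aly cysts, against at most 6.91 RPKM in a late library (2.57 ± 0.88, limma adjusted p = 0.0304, and up to 0.339 without aly a or LC1 a). Psi18S-1347b in pAbp had 12.8 and 4.10 RPKM in aly cysts, against 0 in EC and 1 read in the late libraries. Its calls against EC and late spermatocytes (limma adjusted p = 0.0375 and 0.0235) were lost with a pseudocount of 8, with either scaling, and the first without any one of the 5 libraries compared.

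All 14 snRNA rows had a higher stage value in LC2 than in LC1, where 46.8% of all genes did, and 12 of the 14 reached 8 RPKM in LC2, compared with 4 in LC1. LC2 was also above LC1 for 44 of 98 snoRNAs (35 the other way), 14 of 30 microRNA precursors (13) and 1 of 11 snmRNAs (10). The difference between LC1 and LC2 was not tested, and which LC2 library lacks a label is not known. LC2 b and LC2 c held 224 and 147 of the 436 snRNA reads of LC2, or 0.00757 and 0.00970% of their reads, and LC2 a stood at 0.00203%. The LC1 libraries had 0.00120 to 0.00238%. In aly cysts snRNA reads made up 0.000469 and 0.000508%, while EC had 0.00166 to 0.00186% and S8 0.00285 and 0.00493%. U1, U2, U4 and U5 are encoded by several near-identical copies, between which the authors' counting could split reads, so values of single copies are uncertain.

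U12:73B, the U12 snRNA of the minor spliceosome (chr3L:16653769-16654006), was the most read snRNA. It had no read in the niche and GB, 4.42 and 88.5 RPKM in S4, 62.4 and 106 in S8 and 40.6 in S16. EC had 13.0, 6.49 and 3.90 RPKM, a log2 difference from spermatogonia of −2.41 ± 0.78 (limma adjusted p = 0.0236, up to 0.0979 without S4 b, S8 b, EC b or EC c). Late spermatocytes had 73.8, 24.5 and 67.8 RPKM in LC1 and 54.5, 209 and 268 RPKM in LC2, all above EC (3.28 ± 0.76, limma adjusted p = 0.00208). Aly cysts had 1.71 and 0 RPKM, below every EC and late library, and the difference from late spermatocytes was −5.56 ± 0.88 (limma adjusted p = 1.15e-04). Against EC, aly cysts did not pass. The row lies antisense to an intron of Baldspot, an elongase gene, whose level in late spermatocytes did not pass against EC (limma adjusted p = 0.0983).

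U11, the partner of U12 in the minor spliceosome, had another profile. EC had 49.3, 44.9 and 50.6 RPKM, against 8.92 and 2.74 RPKM in S4, 5.89 and 23.7 in S8 and 23.4 in S16, without overlap (2.17 ± 0.60, limma adjusted p = 0.0099). The call was lost with quantile scaling. Late spermatocytes had 33.5, 4.46 and 12.1 RPKM in LC1 and 11.2, 27.4 and 43.4 RPKM in LC2, all below EC (−1.51 ± 0.59, limma adjusted p = 0.0427). That call was lost without any one of EC a, EC b, EC c, LC1 b, LC1 c, LC2 a or LC2 b, at an adjusted p of up to 0.115. The niche and GB had no read. U11 lies antisense to an intron of Fie, which was itself higher in LC1 (110 RPKM) and LC2 (116 RPKM) than in EC (12.3 RPKM).

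U4:25F, which pairs with U6 before the spliceosome is activated, had 12.1, 18.6 and 18.8 RPKM in LC1 and 23.1, 77.9 and 121 RPKM in LC2, against 8.33, 0 and 0 RPKM in EC (3.76 ± 0.80, limma adjusted p = 0.00106). Aly cysts had no read of it, at least 16.2-fold lower than late spermatocytes (limma adjusted p = 6.48e-04). The U4:25F row lies antisense to an exon of the long noncoding RNA gene CR44794, which was not in the fit. As for Or-aca4, reads of either gene cannot be told apart. U2:34ABa, which recognises the branch point, averaged 12.7 RPKM in late spermatocytes against 0 in EC (at least 3.26-fold, limma adjusted p = 0.00291), with no read in LC2 a. It averaged 0.763 RPKM in aly cysts, lower than late spermatocytes (limma adjusted p = 0.0365), a call lost without 6 of the 8 libraries compared, at up to 0.306. Neither call of U2:34ABa held with quantile scaling. The copies U5:34A, U5:38ABb, U5:63BC, U4:39B and U4atac:82E had LC2 values of 11.8 to 17.2 RPKM and LC1 values of 0 to 2.84 RPKM, and did not pass in late spermatocytes against EC. U1:82Eb, which binds the start of introns, was at 0.893 RPKM in aly cysts, at 9.91 to 26.2 RPKM in the 5 stages up to S16, at 10.05 RPKM in EC, at 1.75 RPKM in LC1 and at 13.9 RPKM in LC2. U1:95Cc had 2.14 RPKM in aly cysts, 11.6 RPKM in EC, 7.07 RPKM in LC1 and 17.4 RPKM in LC2. U6atac:29B, which replaces U6 in the minor spliceosome, had its highest value of 33.2 RPKM in S16 from 3 reads, with 9.33 RPKM in aly cysts, 2.12 RPKM in EC and 10.1 RPKM in LC2. U1:82Eb, U1:95Cc and U6atac:29B passed in none of the comparisons.

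7SK had 32 of its 53 reads in the 16-cell library, at 75.7 RPKM, and no other library had more than 4 reads. The niche had 4.64 and 0 RPKM. Aly cysts had 0 and 1.29 RPKM, EC 0, 6.80 and 0 RPKM, LC1 2.62, 0 and 1.23 RPKM and LC2 1.503, 0.977 and 7.51 RPKM. GB, S4 and S8 had no read. The row passed in none of the 4 comparisons, and since S16 has 1 library, its value has no replicate. Of 5 genes whose products bind or modify 7SK or form P-TEFb, 2 rose in EC against spermatogonia (all genes 22%). The 5 are Larp7, Hexim, bin3, Cdk9 and CycT, of which CycT and bin3 rose (3.87 ± 0.64 and 1.04 ± 0.36 on the log2 scale). In late spermatocytes 2 of the 5 were lower than in EC (all genes 20.1%). In aly cysts 2 of the 5 were higher than in late spermatocytes (all genes 13.4%). Larp7, which binds the 3′ end of 7SK, stood at 10.3 RPKM in S16, at 25.4 and 34.2 RPKM in S4 and S8, and at 31.9 RPKM in EC. The scaRNA mgU2-41, a guide for U2 in an intron of lds, averaged 10.7 RPKM in late spermatocytes against 1.83 RPKM in EC (limma adjusted p = 0.0113, up to 0.0858 without EC a or EC c), and did not pass with total-read or quantile scaling. All but 1 of its 20 late reads lay in LC1, and LC2 a and LC2 c had none.

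Of the 30 microRNA precursor rows, 13 lay in exons, 2 partly in an exon, 10 in introns, 1 antisense to an exon, 3 outside genes and 1 had no annotated position. In EC against spermatogonia 9 were higher and 4 lower (all genes 22 and 7.06%), and in late spermatocytes against EC 8 were higher and 4 lower (23.1 and 20.1%). In aly cysts 4 were higher and 1 was lower than in EC (8.42 and 7.13%), and 4 were lower than in late spermatocytes (17.6%).

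mir-997, of 215 nucleotides, had the most reads of a precursor row. It had 149, 140 and 137 RPKM in LC1 and 178, 126 and 67.4 RPKM in LC2, against 11.5, 14.4 and 0 RPKM in EC (4.51 ± 0.66, limma adjusted p = 3.71e-05). Aly cysts had 121 and 139 RPKM, in the late range and above EC (4.50 ± 0.85, limma adjusted p = 0.00146). No library from the niche to S16 had a read. In EC against spermatogonia it passed (2.53 ± 0.68, limma adjusted p = 0.00782), but not without EC a or EC b, at up to 0.0642, nor with scaling to total reads or quantile scaling.

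mir-2280 lies in an exon of c-cup, one of the genes transcribed after meiosis. It had 90.6, 85.3 and 106 RPKM in LC1 and 125, 193 and 252 RPKM in LC2, against 37.5, 6.71 and 0 RPKM in EC (4.21 ± 0.76, limma adjusted p = 2.55e-04). Aly cysts had 17.7 and 10.2 RPKM and were lower than late spermatocytes (−3.09 ± 0.87, limma adjusted p = 0.0111, and 0.123 without aly b). c-cup went the same way, with 36.7 RPKM in aly cysts, 38.1 RPKM in EC, 223 RPKM in LC1 and 336 RPKM in LC2. mir-4963 in an exon of CG15767 had 21.8, 5.62 and 20.4 RPKM in LC1 and 21.9, 52.9 and 46.9 RPKM in LC2, against 0 in EC (at least 3.74-fold, limma adjusted p = 1.49e-07). It had no read in aly cysts, at least 7.8-fold lower than late spermatocytes (limma adjusted p = 9.99e-07). CG15767 stood at 0.898 RPKM in aly cysts, 2.15 RPKM in EC, 60.8 RPKM in LC1 and 66.7 RPKM in LC2.

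mir-4959 in an exon of Inx5, a gap junction gene, averaged 54.3 RPKM in late spermatocytes against 9.15 RPKM in EC (3.22 ± 0.70, limma adjusted p = 0.0012). In aly cysts it had 62.2 and 54.6 RPKM (against EC 3.43 ± 0.90, limma adjusted p = 0.0126, up to 0.105 without an aly library). Inx5 had 107 RPKM in aly cysts, 19.5 RPKM in EC, 83.4 RPKM in LC1 and 95.4 RPKM in LC2. mir-4958 in an exon of Tob, an antiproliferative gene, had 97.7, 48.0 and 99.6 RPKM in LC1 and 15.3, 6.62 and 6.36 RPKM in LC2, against 9.21, 11.5 and 0 RPKM in EC (2.76 ± 0.73, limma adjusted p = 0.00489). Tob itself had similar values in LC1 and LC2, at 72.7 and 56.3 RPKM, and 5.46 RPKM in aly cysts. mir-4983, outside genes, and mir-4975, in an intron of the transporter gene chk, had no read before the late stages and rose at least 4.55-fold (limma adjusted p = 1.54e-05) and 3.26-fold (limma adjusted p = 1.49e-07) over the EC floor. chk fell in late spermatocytes (−1.80 ± 0.51, limma adjusted p = 0.00789).

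The precursor rows that fell in late spermatocytes lay in, or opposite to, exons of genes that fell. mir-4961 in an exon of ssx, a relative of the sex determination gene Sxl, had 4.47, 18.4 and 8.36 RPKM in LC1 and 10.3, 6.67 and 0 RPKM in LC2, against 46.4, 81.3 and 76.7 RPKM in EC (−3.22 ± 0.65, limma adjusted p = 6.79e-04). Aly cysts, at 12.3 and 8.81 RPKM, were also lower than EC (−2.56 ± 0.83, limma adjusted p = 0.0402), a call lost without EC b, EC c or either aly library at up to 0.216, and with scaling to total reads. ssx fell with it, to 13.6 RPKM in LC1 and 4.13 RPKM in LC2, against 104 RPKM in EC. mir-4956 in an exon of Sxl averaged 4.55 RPKM in late spermatocytes against 22.4 RPKM in EC (−2.44 ± 0.71, limma adjusted p = 0.00902). In EC mir-4956 was higher than in spermatogonia, where it averaged 2.72 RPKM (3.33 ± 0.72, limma adjusted p = 0.00185). mir-4977 in an exon of Eaf, which encodes an elongation factor partner, averaged 11.6 RPKM in late spermatocytes and 60.8 RPKM in EC (−3.12 ± 1.05, limma adjusted p = 0.0215, up to 0.065 without an EC library). Its mean of 60.8 RPKM in EC compared with 8.12 RPKM in spermatogonia (4.17 ± 1.08, limma adjusted p = 0.00618). mir-4970, opposite to an exon of CG6729, averaged 6.69 RPKM in late spermatocytes against 50.5 RPKM in EC (limma adjusted p = 0.033, up to 0.0934 without any one of EC a, EC b, EC c, LC1 a, LC1 c, LC2 b or LC2 c).

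mir-985, in an exon of the long noncoding RNA gene CR46211, had the largest fitted rise of a precursor in EC, with 71.7, 53.9 and 21.6 RPKM, against 0 in S4 and S16 and 0 and 10.1 RPKM in S8 (4.79 ± 0.71, limma adjusted p = 7.82e-05). It stayed present in all late libraries at 11.9 to 59.4 RPKM and in aly cysts at 68.7 and 88.6 RPKM. mir-4911, in an intron of the complex I gene ND-23, averaged 3.02 RPKM in EC against 17.5 RPKM in spermatogonia (−2.92 ± 0.71, limma adjusted p = 0.00421), and each library outside EC had at least 1 read. mir-33, in an intron of the lipid regulator SREBP, had 0 reads in EC against 21.8 and 4.39 RPKM in S8, 97.7 RPKM in S16 and 0 in S4 (at least 3.27-fold lower, limma adjusted p = 1.14e-05). Without S16 its mean was under 8 RPKM, and the p-value does not take in the difference among S4, S8 and S16. mir-1011, in an intron of the receptor gene Ir93a (chr3R:20853305-20853358), had 9 reads or 179 RPKM in S16, 4 reads or 39.0 RPKM in GB b and 1 read or 17.2 RPKM in EC c. The other 17 libraries had none, and mir-1011 passed in none of the comparisons. mir-4942 had 24.1 and 21.3 RPKM in aly cysts and between 8.51 and 202 RPKM in the other libraries, and mir-3642, in an intron of Apt1, had 18.8 and 15.4 RPKM in aly cysts and 16.2 to 24.4 RPKM in EC. Neither passed in any of the comparisons.

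mir-4987, in an exon of CG6700, averaged 10.9 RPKM in EC against 0.409 RPKM in spermatogonia (2.34 ± 0.85, limma adjusted p = 0.0398), a higher ratio of means than that of mir-985. The call of mir-4987 was lost without 6 of the 8 libraries compared and with total-read or quantile scaling. In aly cysts mir-4987 had 35.5 and 31.1 RPKM. mir-1006, in an intron of the proton pump gene VhaSFD, averaged 21.7 RPKM in EC against 4.72 RPKM in spermatogonia (2.73 ± 0.94, limma adjusted p = 0.0319). That call was also lost with both scalings, and without S4 b, S8 b, S16, EC b or EC c, at up to 0.151. mir-1008, in an intron of CG18004, had no read in EC and 5 reads in spermatogonia (limma adjusted p = 0.0218, up to 0.0664 with 1 library left out).

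The 11 snmRNAs all lay in exons, 10 wholly and 1 in part. In late spermatocytes 6 of 11 were higher and 2 lower than in EC (all genes 23.1 and 20.1%). snmRNA:158 in Msp300, a nuclear anchoring protein gene, had 83.4, 58.6 and 56.7 RPKM in LC1 and 80.4, 161 and 32.6 RPKM in LC2, against 0, 4.92 and 0 RPKM in EC (5.27 ± 0.97, limma adjusted p = 2.97e-04). The other 2 rows of Msp300 had few reads in LC2. snmRNA:128 had 80.3, 53.5 and 97.1 RPKM in LC1 and 10.8, 0 and 0 RPKM in LC2, and snmRNA:765 had 110, 53.3 and 72.6 RPKM in LC1 and 7.42, 0 and 0 RPKM in LC2. Msp300 had 33.6 RPKM in LC1, 5.94 RPKM in LC2, 1.77 RPKM in aly cysts and 0.428 RPKM in EC. The late calls of snmRNA:128 and snmRNA:765 rest on LC1, and that of snmRNA:765 was lost without EC b or EC c (limma adjusted p up to 0.0545). snmRNA:763 in CG8051 averaged 23.1 RPKM in late spermatocytes against 4.33 RPKM in EC (3.24 ± 0.82, limma adjusted p = 0.0036). In aly cysts it had no read, at least 6.08-fold lower than late spermatocytes (limma adjusted p = 0.00131). snmRNA:838 in vsg and snmRNA:641 in the coactivator gene Crtc fell in late spermatocytes, with means of 16.9 and 11.5 RPKM against 85.4 and 31.7 RPKM in EC (limma adjusted p = 0.00348 and 0.00486).

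snmRNA:438, in klar, a gene of nuclear migration, had 37.2, 33.5 and 26.1 RPKM in LC1 and 26.7, 27.7 and 13.3 RPKM in LC2, against 0, 0 and 28.99 RPKM in EC (3.19 ± 0.92, limma adjusted p = 0.00875, up to 0.0736 without EC a or EC b). In aly cysts it had 0 and 9.16 RPKM, lower than late spermatocytes (−3.15 ± 1.06, limma adjusted p = 0.0284), a call lost without aly a or LC1 a. snmRNA:204 in CG32638 had 52.4 and 58.6 RPKM in aly cysts, against 17.6, 0 and 0 RPKM in EC (4.41 ± 1.31, limma adjusted p = 0.0253, up to 0.137 without EC b, EC c or either aly library). In late spermatocytes its mean of 23.1 RPKM passed against 5.87 RPKM in EC (limma adjusted p = 0.0427) but did not with either scaling or without 7 of the 9 libraries compared. snmRNA:184 in the chromatin remodeller gene dom and snmRNA:649 in Dip-C had reads in all libraries of aly cysts, EC and LC1. Their stage means were 49.7 and 45.6 RPKM in aly cysts and 44.1 and 38.4 RPKM in EC. snmRNA:357 in Msr-110 was highest in GB, at 34.1 RPKM, with all 10 reads in 1 library. These last 3 rows passed in none of the comparisons.

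Over rows with at least 20 reads, the level of an exon row had a median of 59.6% of its host's level (21 rows), against 3.62% for an intron row (59 rows). Across the 20 libraries the correlation of row and host had a median of 0.66 for exon rows (range −0.42 to 0.97) and of −0.02 for intron rows (range −0.69 to 0.75). Row and host of a library share its depth and its RNA, and the difference between both kinds of row was not tested. Many hosts of intron rows are abundant ribosomal protein genes. Whether the limit of 1 read per base affected their share or correlation was not tested either. Of the 11 exon rows that were higher in late spermatocytes than in EC, the host was higher for 5, lower for 1, did not pass for 2, and could not be fitted for the 3 rows of Msp300. Of the 5 exon rows that were lower, the host was lower for 4. Over all 28 exon rows with a fitted host, the host was lower for 14 and higher for 7.

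Of the 11 intron rows that were higher in late spermatocytes, the host was lower for 7 and did not pass for 4. Hosts of intron rows were lower for 67 of 95 rows in this comparison, so the 7 of 11 is near the share for intron rows as a whole. The 21 ribosomal protein genes that hold rows all fell in late spermatocytes against EC (median log2 difference −1.12) and in aly cysts against EC (median −1.77). Over all genes 20.1 and 7.13% fell. A read in 100 nucleotides was worth 6.17 to 9.28 RPKM in EC and 2.04 to 2.93 RPKM in aly cysts. In LC1 it was worth 2.98 to 5.56 RPKM and in LC2 3.41 to 8.52 RPKM. The part of the limit of 1 read per base in these falls was not tested. RpS29, RpS9 and RpL3 are among the 21 genes, and their intron rows Psi18S-1275, Me28S-G3253 and Me18S-C1096 rose in late spermatocytes. In EC against spermatogonia the host was lower for 5 of the 11 intron rows that were lower (all genes 7.06%). In aly cysts against late spermatocytes it was lower for 5 of the 8 exon rows that were lower (all genes 17.6%). For 2 of these 8 the host was not in the fit. The share of lower hosts over all intron or exon rows was not taken in these comparisons, so both counts lack that baseline.

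**Figure D4:**
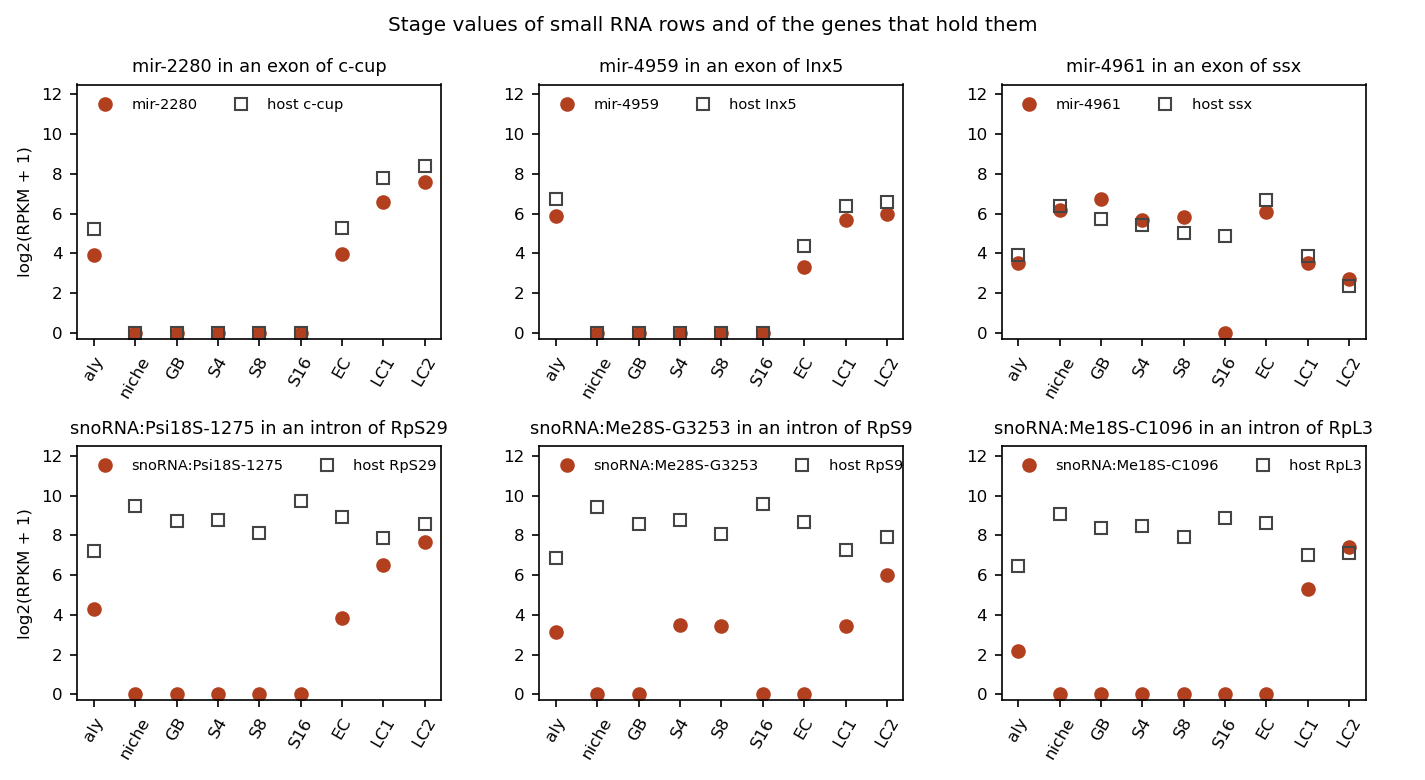
Stage values, as log2(RPKM + 1), of 6 small RNA rows (filled circles) and of their host genes (open squares) in aly cysts and the 8 stages. The exon rows mir-2280 and mir-4959 move with c-cup and Inx5, mir-4961 and ssx are both low in LC1 and LC2 but differ in GB, S16 and EC, while the intron rows Psi18S-1275, Me28S-G3253 and Me18S-C1096 have their highest stage value in LC2, where RpS29, RpS9 and RpL3 are lower than in EC.

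**Figure D5:**
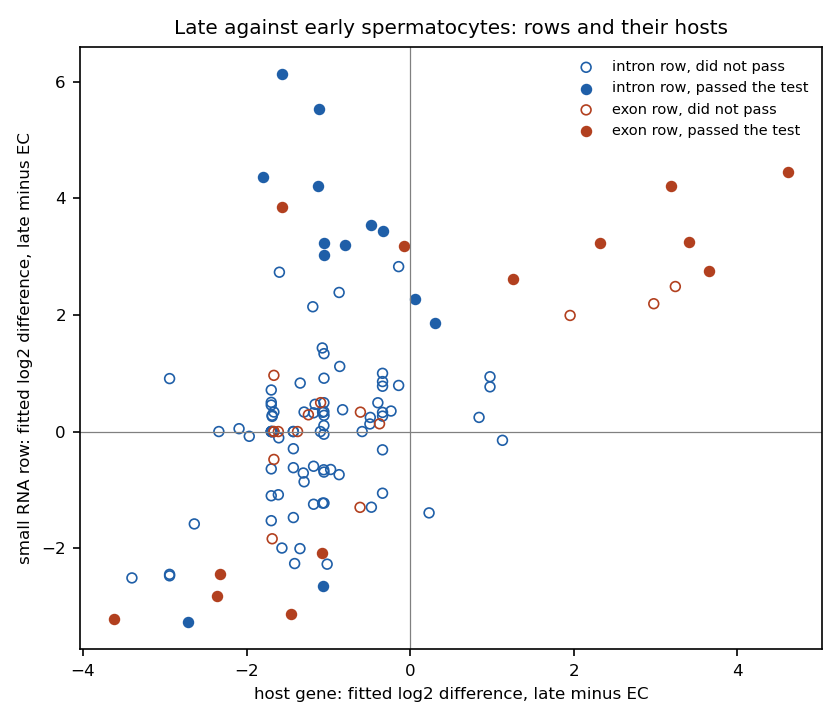
Fitted log2 difference of late spermatocytes minus EC for each small RNA row (vertical axis) against that of its host (horizontal axis), for 95 intron rows (blue) and 28 exon rows (red), filled where the row passed the test. 11 intron rows passed on the higher side, all at hosts that were lower or did not pass, while exon rows that passed on the higher side include 5 at hosts that were higher.

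Genes for the proteins that make and carry these RNAs were compared in the same fits, with limma and Benjamini-Hochberg adjustment over all genes. Of 8 core genes of snoRNA particles, 4 were lower in EC than in spermatogonia (all genes 7.06%) and 7 were lower in late spermatocytes than in EC (20.1%). Nop56, nop5 and hoip, which form the C/D particle, fell in late spermatocytes with log2 differences of −2.37, −2.64 and −2.996, and Fib, the methyltransferase of the particle, was the 1 that did not pass. Nop60B was at 66.2 RPKM in EC against 143 to 199 RPKM in S4, S8 and S16. Of 6 Uhg host genes, 5 were lower in EC than in spermatogonia (all genes 7.06%) and 3 lower in late spermatocytes than in EC (20.1%). Of 17 tested genes of spliceosomal snRNPs and their assembly, 10 were lower and 1, Gem2, was higher in late spermatocytes than in EC (all genes 20.1 and 23.1%), and 9 were lower in aly cysts than in EC (7.13%). SmB, a core Sm protein gene, and Prp8, the centre of the U5 particle, fell by 3.05 and 3.40 on the log2 scale in late spermatocytes.

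Of 7 microRNA pathway genes, 5 were higher in EC than in spermatogonia (all genes 22%), and 1 was higher and 4 were lower in late spermatocytes than in EC (23.1 and 20.1%). loqs, which encodes the partner of Dicer-1, rose by a log2 difference of 3.15 ± 0.51 in EC and again by 1.35 ± 0.49 in late spermatocytes, to 182 RPKM in LC1 and 112 RPKM in LC2. AGO1, the main microRNA effector, rose to 62.1 RPKM in EC, against 20.6 to 28.4 RPKM in S4, S8 and S16, and was lower in late spermatocytes (−2.62 ± 0.32) and in aly cysts (−2.44 ± 0.42) than in EC. Of 9 genes for snRNA transcription and 3′ end cutting, 4 were lower in late spermatocytes than in EC (all genes 20.1%). IntS11, the cutting subunit of Integrator, fell by 2.75 on the log2 scale there.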

How the data were processed

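The table of 12810 genes was deposited by the authors as RPKM per the file headers, with 1 value per stage; its title line writes cRPKM without explaining the c. Bowtie 0.12.7 and edgeR are listed, per the submitters' processing notes, without their use. Build, annotation, strand and treatment of duplicates were not given in the sources used here. Each stage value was solved as a plain mean over libraries, with the number and sizes of libraries inferred from values that recur over genes. Whole reads per library were found for 12757 genes and all 154 rows (tolerance 1e-08 of a read). Letters a, b and c follow library size, largest first. LC2 held 3 libraries although 2 are labelled, and the fit counts all 3, 1 more than the mapped samples. The solving was run on simulated reads with library sizes and lengths given to it, which cannot test how these were inferred. The fit was run on simulated reads with the same noise for all genes. That setting does not cover rows with many reads in a library and none in its partner. Recovered lengths equalled annotated ones for 142 of 147 rows. Positions come from Ensembl BDGP6.54.

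limma 3.58.1 (R 4.3.3, trend) was fitted to log2(RPKM + 1) of 12431 genes with at least 1 RPKM in 2 libraries, over 20 libraries and 9 group means, with Benjamini-Hochberg adjustment; ± is the standard error. Fold changes on this scale understate low genes. Spermatogonia weight S4, S8 and S16 by 2, 2 and 1 and late spermatocytes weight LC1 and LC2 by 3 and 2; the lone S16 library is assumed to vary like the others. Stage values above are plain means. Floors are 3 reads over the libraries of a side, and the at-least folds were computed against them. Named rows are the 3 markers, the 10 highest per class, rows at 8 RPKM in 5 or more stages, up to 10 largest calls per direction, and rows with 20 reads in a library, most with their hosts; 1 of these rows is not reported here. Rows and lists were chosen with earlier results of these data known. Alternatives were another pseudocount, no filter, scaling by total reads or quantiles, no minimum level, a 4-fold difference without a test, and leaving out each library. Of the spliceosomal list of 19 genes, LSm10 and LSm11 were not matched.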

Additional observations from a re-analysis of the deposited data

How the results depend on the processing

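No paired analysis was possible because the recovered libraries carry no replicate number. Of the counts of rows under other settings, 41 of 56 stayed within 1.5 times, as did 45 of 60 with 1 library left out. With a pseudocount of 8, aly cysts had 4 rows lower than EC and 10 higher than late spermatocytes. Scaling to total reads gave 7 rows higher in EC than in spermatogonia and 0 lower in aly cysts than in EC. Quantile scaling gave 5 higher and 32 lower in EC than in spermatogonia, and 8 higher and 5 lower in aly cysts than in EC. Without a minimum level, aly cysts had 21 rows higher than EC and 10 higher than late spermatocytes. Requiring reads in every library of the higher side, a choice made after seeing the data, gave 9 higher and 6 lower in EC than in spermatogonia. A 4-fold difference of stage values without a test gave 38 rows lower in EC than in spermatogonia, and in aly cysts 9 lower than EC and 11 higher than late spermatocytes. The cause of these shifts was not tested.

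With 1 library left out, the counts ranged from 8 to 16 higher and 8 to 23 lower in EC against spermatogonia, 27 to 34 higher and 5 to 10 lower in late spermatocytes against EC, 4 to 12 higher and 0 to 1 lower in aly cysts against EC, and 3 to 8 higher and 12 to 25 lower in aly cysts against late spermatocytes. EC against spermatogonia had 8 higher and 9 lower without EC a, and 9 higher and 8 lower without EC b. Late spermatocytes against EC had 5 lower without EC c. Aly cysts against EC had 4 higher without aly a, 6 without aly b and 8 without EC c, and 0 lower without aly a, aly b, EC b or EC c. Aly cysts against late spermatocytes had 13 lower without aly a, 12 lower without aly b and 3 higher without LC1 a. Rows at 8 RPKM or more numbered 140, against 154 at 4 RPKM, 112 at 16 RPKM, 138 with at least 3 reads and 94 with 8 RPKM in 2 or more libraries of a stage. Depth limits all rows: 1 read in 100 nucleotides is worth up to 10.7 RPKM, and a row at 0 in a shallow library may hold RNA below that level.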
